A study of Mus musculus with 6 samples.

Results

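The AP-1 family genes Fos, Fosb, Fosl1, Fosl2, Jun, Junb, Jund and Atf3 were examined in ATAC-Seq data from primary mouse embryonic fibroblasts (MEFs) with and without the histone acetyltransferase HAT1. A tested site was given to a gene when its midpoint lay in a window of 30 to 80 kb around that gene in the mm10 genome, and 105 of the 229903 tested sites were found in this way. The windows use positions only and no measured value, but the family was picked with earlier results of these data known. The accessibility of these genes differed little between the genotypes. Over the 105 sites the HAT1+/+ means added up to 11301 normalized reads and the HAT1-/- means to 11056, which is 97.8% of the HAT1+/+ sum. Over all tested sites the same share was 94.8%. These shares are not at like levels, since the member sites had a median of 38.1 reads in HAT1+/+ against 14.5 over all tested sites.

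ATAC-Seq uses a transposase that inserts adaptors into open chromatin, and more reads at a site mean that it was more accessible. It was carried out on 3 HAT1+/+ and 3 HAT1-/- primary MEF cultures, each grown from embryos on a C57bl6 background in DMEM with fetal bovine serum and no further treatment. The comparison asks how accessibility differs when HAT1, which acetylates newly made histone H4, is missing from every cell of the embryo. For each site only the mean level of each genotype was used, so there is no spread between cultures, no test between the genotypes and no p-value in what follows. Levels are the authors' means in normalized reads per site, and differences are HAT1-/- minus HAT1+/+ on the log2 scale. Such cultures are mixed populations, in which fewer cells with an open site and a site less open in each cell cannot be told apart.

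The promoters of fibroblast genes were open in these cultures. All 10 fibroblast marker genes had a site within 1 kb of a start, with a median of 210 normalized reads per kb in HAT1+/+. Of 17 markers of epithelial, endothelial, blood, neural, muscle and pluripotent cells, 15 had such a site, with a median of 73.8 reads per kb, and Krt5 and Neurod1 had none. Of all coding genes, 73.4% had such a site, with a median of 174 reads per kb. The fibroblast list, from 77.1 to 368 reads per kb, overlapped the other list, from 34.7 to 277. The promoter site of Hat1 held 206.5 reads in HAT1+/+ and 239 in HAT1-/-, a difference of 0.21, but this site does not check the deletion.

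AP-1 is a dimer of basic leucine zipper proteins, formed by a Jun protein with another Jun protein or with a Fos or ATF protein, that binds the sequence TGACTCA, called the TRE, or the cAMP response element TGACGTCA, called the CRE. Several of its genes are immediate early genes, which fibroblasts switch on within minutes of serum, growth factors or stress, without new protein synthesis. Serum response factor, bound at CArG boxes together with Elk or MRTF proteins, and CREB and ATF proteins at CRE sequences carry these signals to the promoters. In fibroblasts AP-1 is known for driving proliferation and the genes of matrix breakdown, and for binding many enhancers.

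The promoters of Fos, Jun and Atf3 show the elements by which these genes answer such signals, and all 3 stretches lay inside accessible sites. They were read from GRCm38, the assembly of mm10, on the strand of the gene. The capitals mark, in this order, the CArG box and TGACGTA in Fos, at chr12:85473560-85473859 on the plus strand, TGACATCA in Jun, at chr4:95052223-95052422 on the minus strand, and TACGTCA in Atf3, at chr1:191183333-191183482 on the minus strand.
Fos promoter: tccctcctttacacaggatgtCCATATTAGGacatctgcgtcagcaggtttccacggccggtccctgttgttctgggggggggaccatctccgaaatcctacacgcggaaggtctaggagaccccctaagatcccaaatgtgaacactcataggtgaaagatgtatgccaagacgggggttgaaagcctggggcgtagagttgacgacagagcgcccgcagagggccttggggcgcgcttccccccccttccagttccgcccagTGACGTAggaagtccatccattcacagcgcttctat
Jun promoter: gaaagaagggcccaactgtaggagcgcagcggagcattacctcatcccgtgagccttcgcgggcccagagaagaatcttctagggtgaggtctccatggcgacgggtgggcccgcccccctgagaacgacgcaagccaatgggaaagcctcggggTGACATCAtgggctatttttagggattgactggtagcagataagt
Atf3 promoter: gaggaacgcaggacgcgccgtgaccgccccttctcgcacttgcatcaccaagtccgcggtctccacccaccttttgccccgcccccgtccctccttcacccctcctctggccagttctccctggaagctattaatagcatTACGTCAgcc
TACGTCA and its reverse complement TGACGTA are the same element read on opposite strands, and neither is contained in a full CRE. In RefSeq promoter windows of 300 bases, from 250 bases before to 50 after each start on GRCm38, this element was found on either strand in 1.27% of 32851 windows. Of the 7 members with a RefSeq window, it was found in those of Fos and Atf3. TGACATCA or its reverse complement was found in 3.62% of the windows, and among the members in that of Jun. A CArG box was found in 1.63% of them and in none of the members' windows, since that of Fos lies farther upstream than its window reaches. A TRE, as TGACTCA or TGAGTCA, was found in 5.20% and a CRE in 1.79% of all windows, and in none of the members'. Fosl1 had no window, and each member's highest promoter site is wider than these windows. The window of Jund lies farther upstream than the coding start used here, so its lack of matches does not cover the stretch at that start. Over whole promoter sites, a full CRE was found in that of Jund, chr8:70698363-70699582. A TRE was found in promoter sites of Fosl1, Fosl2 and Atf3. A CArG box was also found in promoter sites of Fosb and Junb, and TACGTCA or TGACGTA in that of Fosb. The share of all whole promoter sites with these elements was not computed, and the shares given for windows of 300 bases do not apply to them. These matches describe letters and do not show that a factor was bound.

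Outside promoters, some of the members' sites carried TRE sequences. In the central 200 bp a TRE was found in 16.9% of the members' sites outside promoters, against 20.2% of all such tested sites. One is shown from an intron of Fosl2, at chr5:32146413-32146493, one from downstream of Jun, at chr4:95035653-95035733, and one from upstream of Atf3, at chr1:191224406-191224486, all on the plus strand of GRCm38. The capitals mark the TRE and, in the Atf3 stretch, also TACGTCA.
Fosl2 site with TRE: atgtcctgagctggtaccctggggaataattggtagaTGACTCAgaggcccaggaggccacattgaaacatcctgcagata
Jun site with TRE: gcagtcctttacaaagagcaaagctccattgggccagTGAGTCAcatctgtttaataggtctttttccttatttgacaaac
Atf3 site with TRE: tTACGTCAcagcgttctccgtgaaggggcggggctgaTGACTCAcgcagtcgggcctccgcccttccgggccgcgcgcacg
Each is from the site outside promoters that held the most reads in HAT1+/+ among the gene's sites with a TRE. Fos was searched in the same way and had no such site. The Fosl2 site held 38.1 reads in HAT1+/+ and 29.4 in HAT1-/-. The Jun site held 18.5 and 35.5 reads, the highest difference at any Jun site. The upstream Atf3 site held 206.5 and 183.5 reads and was the highest site of Atf3 outside its promoter.

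**Figure D1:**
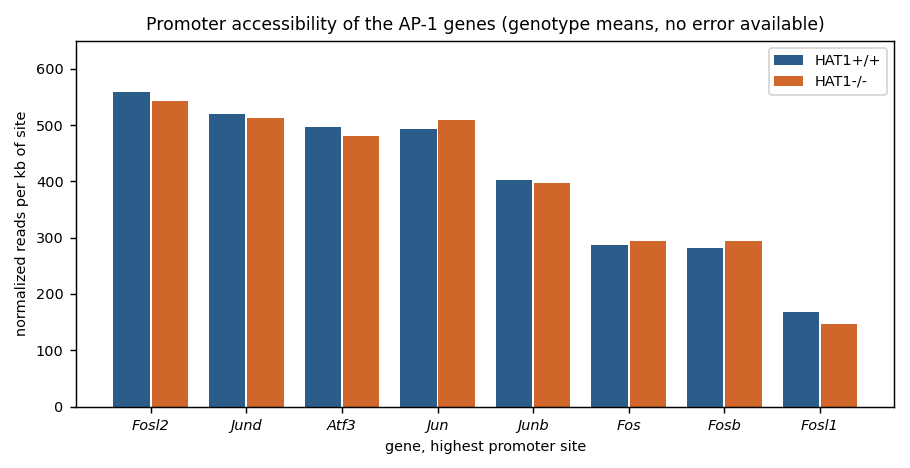
Accessibility of the promoter site with the most reads for each AP-1 gene, in normalized reads per kb of site, for the HAT1+/+ means (blue bars) and the HAT1-/- means (orange bars), without error bars since only genotype means are used. The HAT1+/+ bars run from 558 reads per kb at Fosl2 to 167 at Fosl1, and the bars of a pair are close together at every gene.

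Each of the 8 genes had an accessible promoter in both genotypes. At the promoter site with the most reads, the HAT1+/+ level per kb was highest at Fosl2 with 558 reads per kb, followed by Jund with 520, Atf3 with 497, Jun with 492, Junb with 403, Fos with 288, Fosb with 282 and Fosl1 with 167. In HAT1-/- the levels in the same order of genes were 543, 513, 480, 510, 397, 294, 294 and 147 reads per kb. Atf3 and Jun therefore exchanged places, and Fos and Fosb came out level. The spread between cultures that would tell neighbours in this order apart was not available. Among the 16049 protein-coding genes with a promoter site, Fosl2 stood at the 93.6th percentile of the HAT1+/+ level per kb and Fosl1 at the 48.3rd.

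The differences at these 8 promoter sites ran from -0.19 at Fosl1 to 0.06 at Fosb. For all coding genes the median was -0.07, with a 5th percentile of -0.61 and a 95th of 0.30. None of the 8 differed by 1.5-fold or more, a fold used here to call a value in the absence of a test. Of all coding genes, 5.57% were lower and 1.62% higher by that fold, so that a count of 0 among 8 is near what the background gives. The values of 5 genes were below 0 and those of 3 above, but with the median of all sites, -0.06, subtracted, Fosl1 alone remained below 0. That median is over sites of all levels, most of them lower than these promoters. Tested sites at the level of Fosl2, Jund, Junb and Atf3 had a median of -0.01. These genes, at -0.04, -0.02, -0.02 and -0.05, lay below it. At the level of Fos and Fosb the median was -0.03, and both lay above it. Fosl1, at -0.19, was below the -0.11 of its level, and Jun lay above the levels covered.

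**Figure D2:**
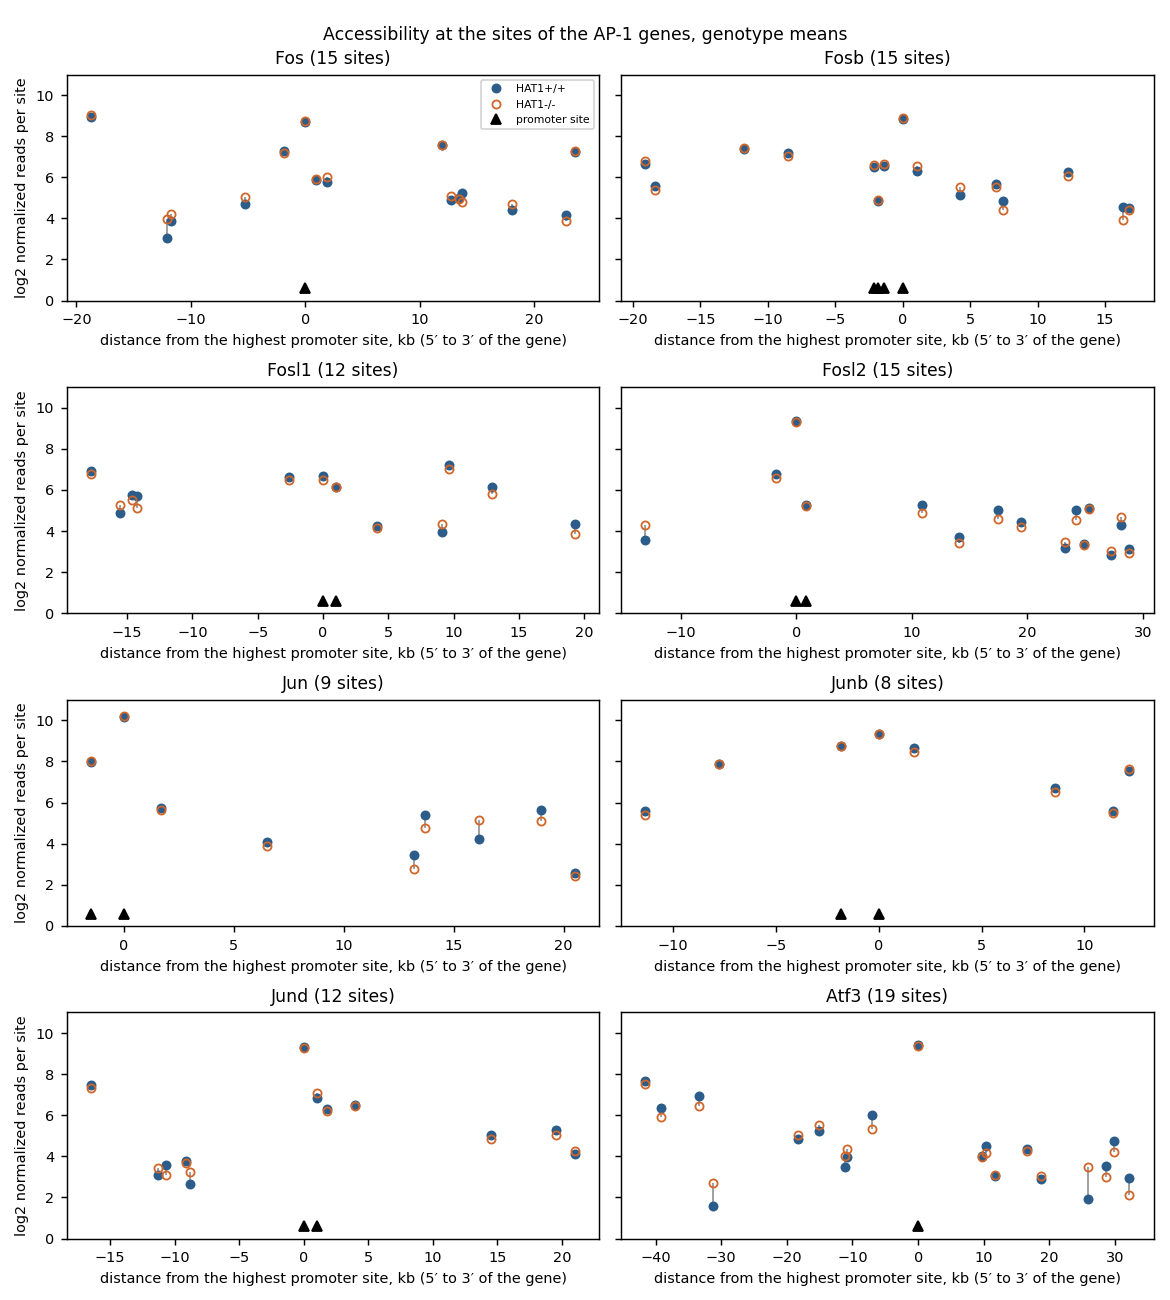
Log2 of the normalized reads per site (vertical axis) against the distance in kb from the highest promoter site, read 5′ to 3′ of the gene (horizontal axis), for the sites of each AP-1 gene. Filled blue points are HAT1+/+ means, open orange points HAT1-/- means, and triangles mark promoter sites. The points of a pair nearly coincide at the promoters and separate most at low sites, such as those downstream of Jun and of Atf3.

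Fos encodes the founding partner of Jun and is the best known immediate early gene. It lies at chr12:85473890-85477273 on the plus strand, and its window held 15 sites, each of them nearest to the start of Fos among coding genes. Its promoter site, chr12:85473458-85474893, held 413 reads in HAT1+/+ and 422 in HAT1-/-, a difference of 0.03. The site with the most reads in the window was not the promoter but an intergenic site 18.4 kb upstream, chr12:85454899-85456033, with 495 and 516 reads. A site 12.2 kb downstream of the start held 191 and 189 reads, and its central 200 bp contained a CArG box. These 3 high sites were within 0.06 of no difference. Of the 15 sites 10 were above 0, or 11 with the median of all sites subtracted, and the median was 0.05. The site at chr12:85461957-85462241, 11.8 kb upstream, was higher by 0.89, from 8.34 to 15.5 reads, and was the only Fos site past 1.5-fold.

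Fosb, which encodes a close relative of Fos, lies at chr7:19302696-19310051 on the minus strand. It had 4 promoter sites, more than any other member, and all 4 were slightly above 0, from 0.06 to 0.12. The highest of them, chr7:19307418-19309020, held 452 reads in HAT1+/+ and 471 in HAT1-/-. A promoter site just upstream of the start, chr7:19310247-19310510, contained both a CArG box and TACGTCA in its central 200 bp, and it held 91.8 and 96.3 reads. Within the gene, the next sites downstream held 78.2 and 95.0 reads, a difference of 0.28, and 35.0 and 46.9 reads, a difference of 0.42. On the far side, toward the neighbouring gene Rtn2, all 5 sites were below 0. The lowest of these, chr7:19291678-19292033, overlapped the promoter region of Rtn2 and held 23.6 and 15.3 reads, a difference of -0.62. It was the only Fosb site past the fold. The highest site outside promoters, chr7:19319693-19320323 in the upstream region, held 168 and 171 reads.

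Fosl1 encodes FRA1, a Fos relative that is itself a target of AP-1 in proliferating cells. It lies at chr19:5447547-5455946 on the plus strand in a gene-dense region, and only 4 of its 12 sites had the start of Fosl1 as the nearest coding start. It had the lowest promoter level of the family and the lowest sum in HAT1-/- relative to HAT1+/+, at 802 and 714 reads, or 89.1%. The site with the most reads in its promoter, chr19:5447477-5448089, went from 103 reads to 89.9, and the other promoter site from 71.5 to 69.6. In the window 10 of 12 sites were below 0, or 9 with the median of all sites subtracted, and none was past 1.5-fold. Their median was -0.18. The lowest, chr19:5433382-5433760, carried 2 TRE sequences and held 52.3 and 35.3 reads, a difference of -0.57. The highest site outside promoters, chr19:5429799-5430265, held 122 and 108 reads. The 187 sites within 500 kb on each side of the window also had a median below 0, at -0.11.

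Fosl2 encodes FRA2, which is expressed more steadily than Fos. It lies at chr5:32135801-32157842 on the plus strand, and its 15 sites were all nearest to its own start. Its promoter site, chr5:32134992-32136168, held 657 reads in HAT1+/+ and 639 in HAT1-/-, and made up 62.9% of the reads of the locus. A site 2 kb upstream, chr5:32133639-32133947, was the highest outside the promoter, with 111 and 95.0 reads. Of the 13 sites outside the promoter 9 were below 0, with a median of -0.20, against -0.04 and -0.05 at the 2 promoter sites. Over all 15 sites 11 were below 0, but 7 with the median of all sites subtracted. The 4 sites within the gene were all below 0, from -0.24 to -0.47. They were small, with 12.9 to 38.1 reads in HAT1+/+, and none was past the fold. The only Fosl2 site past it, chr5:32122363-32122626, lay 13.3 kb upstream and was higher by 0.72, from 11.7 to 19.3 reads.

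Jun encodes the central subunit of AP-1, which can pair with itself as well as with Fos and ATF proteins. It lies at chr4:95049034-95052222 on the minus strand. Its promoter site, chr4:95050650-95052989, was 2340 bp wide and held 1152 reads in HAT1+/+ and 1193 in HAT1-/-, the most of any member site. A second promoter site just upstream held 252 and 261 reads, and both sites differed by 0.05. The promoter site alone made up 71.9% of the reads of the locus, and the Jun antisense gene Junos overlaps both sites. Outside the promoter all sites were low, and the highest, chr4:95050068-95050166, held 53.1 and 49.9 reads.

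Within the Jun window the downstream sites had the most divergent values, and they overlap the annotated gene Gm12703. From 13.6 to 19.4 kb from the start, the sites differed by -0.64, -0.62, 0.94 and -0.57. The first of these, chr4:95038556-95038725, held 10.8 and 6.92 reads, and the second, chr4:95037825-95038405, held 42.2 and 27.5 reads. Between 2 lower sites, chr4:95035447-95035862 held 18.5 reads in HAT1+/+ and 35.5 in HAT1-/-, and it is the site whose TRE is printed above. The median over the 9 sites was -0.14, while the summed reads differed by 0.02 because the promoter carries most of them. Without the promoter site with the most reads the sum differed by -0.05.

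Junb encodes a Jun protein that often restrains Jun activity in fibroblasts. It lies at chr8:84974484-84978718 on the minus strand. Its window held 8 sites and the most reads of the family, 2097 in HAT1+/+ and 2034 in HAT1-/-. Its promoter site, chr8:84977353-84978960, held 648 and 639 reads, and a second promoter site just upstream held 434 reads in both genotypes. Another large site, within the annotated gene, chr8:84976000-84976853, held 399 and 347 reads, a difference of -0.20, and was the highest outside promoters. The 8 differences ran only from -0.20 to 0.10, with an SD over sites of 0.11, the narrowest of the family, and no site here had fewer than 47.5 reads in HAT1+/+. Only 3 of the 8 sites had the start of Junb as the nearest coding start, and 4 lay in promoter regions of the neighbours Rnaseh2a, Prdx2 and Hook2.

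Jund encodes the most constantly expressed Jun protein. It lies at chr8:70698949-70700616 on the plus strand. Its promoter site, chr8:70698363-70699582, held 635 reads in HAT1+/+ and 626 in HAT1-/-, and a second promoter site toward the end of this short gene held 114 and 135 reads, a difference of 0.25. That was the largest difference at any promoter site of the family. The highest site outside promoters, chr8:70682036-70682982, held 176 and 162 reads. A small site 8.8 kb upstream, chr8:70690061-70690191, was just past the fold at 0.59, from 6.28 to 9.45 reads. The 12 sites had a median of -0.06.

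Atf3 encodes a stress-induced partner of Jun that also acts as a repressor. It lies at chr1:191170296-191218039 on the minus strand, with 2 annotated coding starts, at 191218039 and at 191183340. The promoter site with the most reads lay at the second, chr1:191182361-191183728, and held 680 reads in HAT1+/+ and 657 in HAT1-/-. No site lay within 1 kb of the upstream start. The site nearest to it, 1.7 kb inside the gene, held 124 and 86.8 reads, a difference of -0.51. The next, 3.8 kb inside the gene, held only 3.03 and 6.50 reads and went the other way, with a difference of 1.10. A site 4.2 kb upstream held 82.1 and 61.0 reads, a difference of -0.43. Farther upstream, chr1:191224040-191225133 held 206.5 and 183.5 reads, a difference of -0.17. The sites at 1.7 kb and 4.2 kb and this one were the 3 largest of Atf3 outside the promoter, and all 3 differed more than the promoter site, which stood at -0.05.

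Atf3 had the widest spread of the family, with differences from -0.82 to 1.58 and an SD over its 19 sites of 0.60. The site 6.7 kb upstream of the second start, chr1:191189596-191190421, held 64.0 and 39.9 reads, a difference of -0.68, and it contained a TRE. Among the sites past the fold in the family it had the most reads. The other 3 of Atf3 were small. The site at chr1:191150759-191150982 held 7.78 and 4.41 reads, a difference of -0.82 and the lowest of the family. The site at chr1:191157058-191157248 held 3.76 and 11.2 reads, a difference of 1.58 and the highest, and that at chr1:191214191-191214281 held 3.03 and 6.50 reads, a difference of 1.10.

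**Figure D3:**
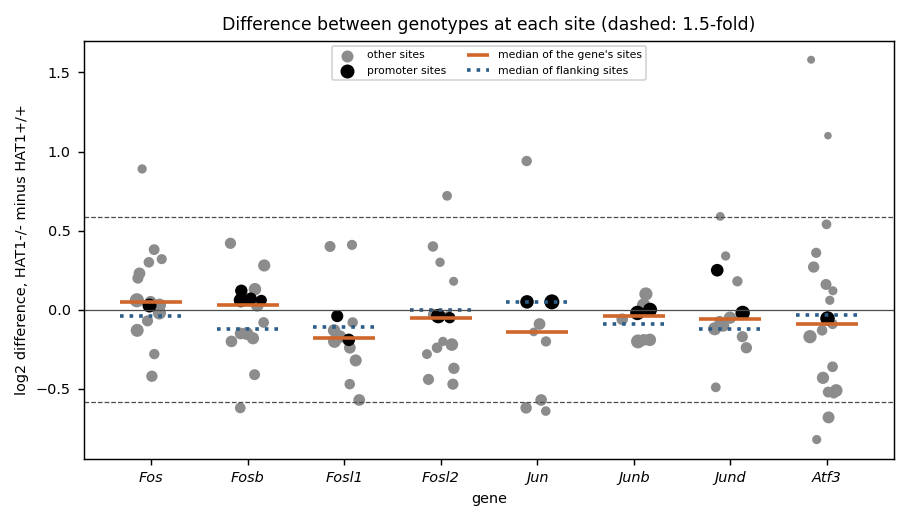
Log2 difference between HAT1-/- and HAT1+/+ (vertical axis) at each site of the 8 AP-1 genes (horizontal axis), with larger points for higher sites and black points for promoter sites. Orange lines are the medians of each gene's sites, dotted blue lines the medians of the sites within 500 kb on each side, and dashed lines mark 1.5-fold. Promoter points lie between -0.19 and 0.25, and 11 other points lie on or past the dashed lines.

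Over the whole family, 63 of the 105 differences were below 0, 41 above and 1 at 0. The median was -0.06, which is also the median of all 229903 tested sites. With that value subtracted, 52 were below 0, 52 above and 1 at 0. The 16 sites in the members' own promoters added up to 5862 reads in HAT1+/+ and 5900 in HAT1-/-, or 100.6%, with a range from -0.19 to 0.25. The 77 sites outside any promoter added up to 4639 and 4409 reads, or 95.0%, with a median of -0.10. The 12 sites in promoters of neighbouring genes added up to 800 and 746 reads, or 93.3%. The same share was 94.8% over all tested sites, 95.9% over all tested promoter sites and 94.0% over all other tested sites. By gene, the summed reads differed from -0.17 at Fosl1 and -0.13 at Atf3 to 0.02 at Jun and Fosb and 0.03 at Fos, while Fosl2, Junb and Jund lay at -0.07, -0.04 and -0.02.

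Past 1.5-fold, 5 member sites were lower and 6 were higher in HAT1-/-. Among all tested sites 14.6% were lower and 9.85% higher by this fold. Just past the fold stood the Jund site at 0.59 and the lower sites of Fosb and Jun at -0.62. Just short of it stood a Jun and a Fosl1 site, both at -0.57, and an Atf3 site at 0.54. None of the 11 lay in a promoter of a member.

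The members' sites were higher and wider than the tested sites as a whole. Their median was 38.1 reads in HAT1+/+ against 14.5 over all sites, and their median width 322 bp against 255 bp. At least 1 kb wide were 9 of them, or 8.57%, against 2.21% of all sites. In promoter regions of any coding gene lay 26.7% of them, against 11.5% of all sites. High sites differed less between the genotype means than low ones, and the members were therefore compared with tested sites of the same level.

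Of the 21 member sites with a mean of both genotypes under 16 reads, 7 were past 1.5-fold in either direction, or 33.3%, against 32.2% of all sites at that level. Of the 47 from 16 to 64 reads, 4 were past it, or 8.51%, against 17.8%. Of the 26 from 64 to 256 reads none was, against 5.92%, and of the 11 with at least 256 reads none was, against 0.191%. All 11 sites past the fold thus had a mean under 64 reads. At the 37 sites of at least 64 reads the differences ran from -0.51 to 0.28, and at the 11 highest from -0.20 to 0.06.

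**Figure D4:**
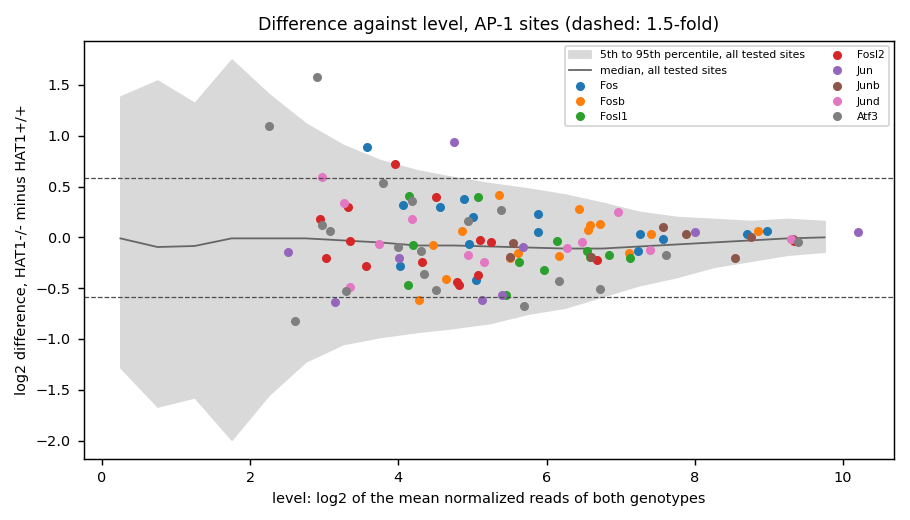
Log2 difference between HAT1-/- and HAT1+/+ (vertical axis) against the log2 of the mean normalized reads of both genotypes (horizontal axis) for the 105 AP-1 sites, coloured by gene. The grey band holds the 5th to the 95th percentile of all tested sites at each level, the grey line is their median and dashed lines mark 1.5-fold. The band narrows as the level rises, and 3 AP-1 sites lie above it and none below it.

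Within bins of level, 3 of 104 member sites lay above the 95th percentile of all tested sites and 0 below the 5th, where 10% of all sites lie outside by construction. The site with the most reads at Jun was above the levels covered by the bins. The 3 sites were those at Fos with 0.89, at Jun with 0.94 and at Atf3 with 1.58. For the Jun site, the 95th percentile at its level was 0.59.

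The surroundings of the genes were compared with their windows. Over the tested sites within 500 kb on each side, the median difference ran from -0.12 at Fosb and at Jund to 0.05 at Jun. At Fosb the window stood at 0.03 and its flanks at -0.12, and at Fos the window stood at 0.05 and its flanks at -0.04. At Jun the order was the other way, with -0.14 in the window and 0.05 in the flanks. At Fosl2 the flanks stood at 0.00, at Fosl1 at -0.11 and at Junb at -0.09. The mean difference of 25 consecutive sites, centred on each member site, ran from -0.17 to 0.17, against -0.36 and 0.17 for the 5th and 95th percentiles of all sites. Within 1 Mb of a member site, the lowest such mean was -0.91 near Jun, and near the other 7 genes it was between -0.23 and -0.40.

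In the central 200 bp of each site, a TRE was found in 16 of the 105 member sites, or 15.2%, against 18.5% of all tested sites. Outside promoters it was found in 13 of 77, or 16.9%, against 20.2%. These 13 sites had a median difference of -0.37, and the other 64 of -0.07, while over all tested sites outside promoters the median was -0.05 with a TRE and -0.05 without. Of the 13, 4 lay at Atf3, with differences of -0.53, -0.68, -0.51 and -0.43, and those above 0 were a Fosb site at 0.13 and the Jun site at 0.94. The median depends on the stretch searched. Sites with a TRE only outside the central 200 bp were counted among the 64. They differed by 0.03 at Junb, -0.12 at Jund, and 0.36 and -0.17 at Atf3, the last being the Atf3 site printed above. The sites are few, and a link to the TRE was not tested. A full CRE was found in none of the central stretches, against 0.441% of all sites. TACGTCA or TGACGTA was found in 3 sites, or 2.86% against 0.499%, and a CArG box in 3, or 2.86% against 1.08%.

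The promoters of related genes were described in the same way, from lists of genes and without a test. Of all coding genes with a promoter site, 5.57% were lower and 1.62% higher by 1.5-fold. Counts past the fold in lists this short cannot be told from that background. Of 14 other AP-1 and related leucine zipper genes, 1 was past 1.5-fold, Batf2, which was higher by 0.66 with 5.31 reads in HAT1+/+. The median of the list was -0.06, the next highest was Batf, an immune cell partner of Jun, at 0.37, and the lowest were Atf5 and Maf, both at -0.21. Of 15 upstream factors and kinases, none was past the fold in either direction, and the median was -0.03. In this list Mapk3, which encodes ERK1, stood at -0.47 and Mapk14, which encodes p38 alpha, at -0.28, with Elk1, a partner of serum response factor, at 0.13 and Map2k1, an ERK kinase, at 0.10.

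Of 15 other immediate early genes none was past the fold, and the median was -0.08. The lowest were Ccn2, a matrix protein gene, at -0.44, and Egr3 at -0.26, and the highest were Klf4 at 0.10 and Dusp1, a phosphatase that shuts off MAP kinases, at 0.05. Of 15 genes known as AP-1 targets, 12 were below 0, 2 above and 1 at 0, with a median of -0.14, and with the median of all sites subtracted 10 were below 0 and 5 above. Over all coding genes with a promoter site, 64.9% were below 0, the median was -0.07, and 5.57% were lower and 1.62% higher by 1.5-fold. The matrix protease gene Mmp3 was past the fold at -0.66 with 10.8 reads in HAT1+/+, and the cyclin gene Ccnd1 stood just short of it at -0.58, from 99.0 to 66.3 reads. The highest were Mmp9 at 0.12 and Ccl2, a chemokine gene, at 0.10. The 8 members themselves had a median of -0.02 at these promoter sites.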

How the data were processed

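ATAC-Seq was performed by the authors on 3 HAT1+/+ and 3 HAT1-/- primary MEF cultures. Reads were processed by them with the ENCODE pipeline, Bowtie2 (mm10), MACS2 and DiffBind 2.14.0. How libraries were normalized and sites merged is not given in the sources used here. The deposited table holds, for each site, log2 mean normalized reads of each genotype, given to 0.01. Its columns with the authors' fold change, p-value and FDR were not used.

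Linear reads were computed from the log2 levels and added per gene. Promoter sites overlapped a GENCODE vM21 coding start extended by 1 kb on each side. With only genotype means, no test was made, depth per culture is unknown, and a difference of at least 1.5-fold was called. Sequences were read from GRCm38 and RefSeq. The members and the gene lists were chosen with earlier results of these data known. Sites were named by rule: each gene's highest promoter and non-promoter sites, the 3 lowest and the 3 highest differences, every site past the fold, and the 2 lowest and the 2 highest genes of each list. Other sites described were chosen after their values were seen. Scripts were tested on simulated data (Python 3.11.15, pandas 2.3.3, numpy 2.4.6, matplotlib 3.10.9).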

Additional observations from a re-analysis of the deposited data

How the results depend on the processing

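Of 80 recomputed values, 70 stayed within the spread over a gene's sites or within 1.5 times the count reported. That spread, an SD from 0.11 at Junb to 0.60 at Atf3, was wider than the summed difference of each gene. Staying within it therefore says little, and subtracting the median of all sites could not take a difference out of it. The other 10 were counts of sites past the fold. The 5 lower sites became 3 when only sites nearest to the member's own start were kept, 1 within 5 kb of the gene bodies, 3 at a mean of at least 16 reads, 2 after the median of all sites was subtracted, 0 at 2-fold and 22 at 1.2-fold. The 6 higher sites became 1 within 5 kb of the gene bodies, 1 at a mean of at least 16 reads, 2 at 2-fold and 19 at 1.2-fold. By gene, the summed difference stayed between -0.21 and 0.09 and that of the promoter sites between -0.13 and 0.13. The sum at Jun changed sign with the median over sites, to -0.14, and without its highest site, to -0.05. The sum at Jund changed sign with sites nearest to its start, to 0.01, and within 5 kb of the gene body, to 0.01. Subtracting the median of all sites, -0.06, turned the sums of Junb and Jund above 0, to 0.02 and 0.04, and the promoter sums of Fosl2, Junb and Atf3, to 0.02, 0.05 and 0.01. The cause of these moves was not tested. No paired analysis was possible because the deposited levels are genotype means, and for the same reason no culture could be left out. Low read numbers per site limit the precision, most of all under 64 reads.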

Other observations

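The marker promoters used to check the cultures gave further values. Among the fibroblast genes, Col3a1, which encodes a collagen of loose connective tissue, stood apart with 36.0 reads in HAT1+/+ and 61.8 in HAT1-/-, a difference of 0.78, and the other 9 lay between -0.32 and 0.11. The lowest were Pdgfrb at -0.32 and Col1a1 at -0.24, and the next highest was Col1a2 at 0.11. The 15 markers of other cells with a site had a median of -0.11, with 8 below 0 and 7 above, and markers of 1 cell type went both ways. Of the endothelial genes, Kdr had 99.0 and 64.4 reads, a difference of -0.62, while Cdh5 had 66.7 and 93.1 reads, a difference of 0.48, and Pecam1 differed by 0.06. Of the pluripotency genes, Pou5f1 differed by -0.65 and Nanog by 0.56, with 14.8 and 6.28 reads in HAT1+/+. Ptprc, a blood cell gene, differed by 0.65 with 8.28 reads in HAT1+/+. The part of such cells in any result was not tested.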
